A study of Mus musculus with 9 samples.

Results

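The OAS family comprises the 2′-5′ oligoadenylate synthetases and their relatives, antiviral proteins made in response to interferon. The members were the 8 genes Oas1a, Oas1b, Oas1c, Oas1g, Oas2, Oas3, Oasl1 and Oasl2, taken by symbol from the deposited table of 17156 genes. All 8 had enough counts, in at least part of the libraries, to be tested. Expression was measured by sequencing ribosomal-RNA-depleted total RNA from pancreatic stellate cell lines, fibroblast-like cells that deposit matrix in injury and cancer. The groups were medium conditioned by pancreatic tumour organoids to which 500 nM of the JAK inhibitor AZD1480 was added (CM-JAKi), the same conditioned medium alone (CM), and control medium of DMEM with 5% FBS, named Matrigel-conditioned or control medium in the labels (MG-CM). Each group had 3 libraries after 4 days of culture, and all cells were wild type and of C57BL/6J origin. Replicate 1 was the line PSC4 and replicates 2 and 3 were PSC5-I and PSC5-II, each with its own source of conditioned medium, so that line and source cannot be told apart. PSC5-I and PSC5-II carry 1 line name, and p-values measure the spread between these cultures. No group received the inhibitor in control medium, and the serum content of the conditioned medium is not given separately.

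OAS enzymes are activated by double-stranded RNA and then join ATP into short 2′-5′-linked oligoadenylates. These act as a messenger whose signal ends in the degradation of viral and cellular RNA. Type I interferon induces OAS genes through the kinases Jak1 and Tyk2 and the factor ISGF3, which holds Stat2 and Irf9 and binds interferon-stimulated response elements. Mice carry many Oas1 copies beside single genes for the larger enzymes Oas2 and Oas3, which hold repeated synthetase units. Oasl1 and Oasl2 carry ubiquitin-like domains.

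The promoters of the members that share the core of the interferon-stimulated response element are shown first, because the members moved together across the groups. RefSeq (GRCm38.p6) gave the 250 bases before the start site for 6 of the 8 members, and the entries for Oas1b and Oas2 were not among them. A pair of GAAA words with any 2 bases between them, searched on both strands, occurred in 4 of these 6 windows, against 2.98% of all 32851 promoter windows of this length. They are given in capitals below, 5′ to 3′ on the strand of each gene, and all 4 genes lie on the minus strand of chromosome 5. In Oas1a and Oas1g a pair of matches overlapped close to the start site, with first bases 20 and 14 bases before it in Oas1a. In Oas1c an overlapping pair stood on the opposite strand, so that the capitals show the complement.
Oas1a, chr5:120907526-120907775: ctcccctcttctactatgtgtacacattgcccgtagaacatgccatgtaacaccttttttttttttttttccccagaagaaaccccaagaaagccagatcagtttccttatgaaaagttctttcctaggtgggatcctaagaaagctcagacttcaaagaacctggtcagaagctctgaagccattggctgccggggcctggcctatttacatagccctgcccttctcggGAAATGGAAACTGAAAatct
Oas1g, chr5:120887614-120887863: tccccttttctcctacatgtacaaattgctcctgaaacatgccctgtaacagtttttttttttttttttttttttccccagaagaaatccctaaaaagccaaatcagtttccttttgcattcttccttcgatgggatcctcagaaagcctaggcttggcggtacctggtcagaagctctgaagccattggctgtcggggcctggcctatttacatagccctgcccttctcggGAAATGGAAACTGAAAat
Oas3, chr5:120777660-120777909: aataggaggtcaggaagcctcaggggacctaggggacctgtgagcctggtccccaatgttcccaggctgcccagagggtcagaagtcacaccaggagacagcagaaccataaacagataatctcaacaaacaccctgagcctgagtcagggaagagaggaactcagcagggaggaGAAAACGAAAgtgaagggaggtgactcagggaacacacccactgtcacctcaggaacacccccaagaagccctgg
Oas1c, chr5:120812515-120812764: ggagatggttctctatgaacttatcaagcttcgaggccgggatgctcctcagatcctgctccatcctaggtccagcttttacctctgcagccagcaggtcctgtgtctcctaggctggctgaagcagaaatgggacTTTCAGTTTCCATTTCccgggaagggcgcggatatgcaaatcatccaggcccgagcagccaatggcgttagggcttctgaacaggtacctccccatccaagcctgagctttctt
The Oas1a and Oas1g windows were 82.8% identical over 256 aligned columns, and the other 14 pairs among the 6 windows were 45.7% to 50.2% identical. The GAAA pair was not in the Oasl1 and Oasl2 windows. The palindrome of TTC, any 3 bases and GAA, the core of a STAT site, occurred in 1 of the 6 windows, that of Oas1a, 98 bases before its start site, against 7.02% of all windows. No binding was measured here.

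Libraries held 25625806 to 32466018 counts, of which the 8 genes together took 0.00234% to 0.00277% in CM-JAKi, 0.0429% to 0.0701% in CM and 0.00880% to 0.0202% in MG-CM. Levels are given as CPM, counts scaled to library size with TMM factors, and changes as log2 fold changes ± SE. Each SE is the size of the change divided by the square root of the F of edgeR's quasi-likelihood test. The 12 stellate and fibroblast markers summed to 7188 to 8085 CPM in CM-JAKi, 5221 to 8260 in CM and 6226 to 6887 in MG-CM. Among them, Col3a1 was at 1048 to 2370 CPM, Pdgfra at 329 to 1353 and Vim at 578 to 1782 over the 9 libraries. Dcn, at 213 to 4610, Acta2, at 8.73 to 664, and Lum, at 3.62 to 110, varied more. Fap was at 7.61 to 41.4, and Des, a stellate marker, at 0.924 to 3.32. The 8 leukocyte markers in the table summed to 15.9 to 32.8 CPM in CM-JAKi, 34.1 to 118 in CM and 22.9 to 35.1 in MG-CM, most of it Cd14, and Ptprc did not exceed 0.0387 CPM in any library. The 8 ductal and tumour epithelial genes summed to 12.7 to 31.3 CPM in CM-JAKi, 17 to 23.3 in CM and 18.3 to 23.0 in MG-CM, with Epcam at 0 to 0.180 in every library, and most of the sum was Krt19 at 0.765 to 25.1 and Muc1 at 1.97 to 16.5. The 5 endothelial genes summed to 7.97 to 15.7 CPM in CM-JAKi, 2.17 to 2.64 in CM and 4.85 to 6.10 in MG-CM, with Cdh5 at 0 to 0.521, Emcn at 0 to 12.8 and Tek at 0.521 to 2.90. The 3 acinar and islet genes in the table summed to 5.60 to 7.81 CPM in CM-JAKi, 9.49 to 13.9 in CM and 7.27 to 8.45 in MG-CM, nearly all of it Cela1, with Cpa1 at no more than 0.0343. The part of the leukocyte, epithelial, endothelial and acinar sums in the results below was not tested. In bulk RNA, fewer responding cells and less RNA per cell cannot be told apart.

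The addition of the JAK inhibitor to conditioned medium asks which genes changed with the inhibitor there. Conditioned medium against control medium asks which genes differed between these media. JAK activity itself was not measured. All 8 OAS genes fell with the inhibitor, with log2 fold changes of -10.06 to -1.38, where 8.93% of the 13613 genes tested were called lower. A call is an adjusted p under 0.05 from edgeR's quasi-likelihood test, with Benjamini-Hochberg adjustment over every gene tested. In CM against MG-CM 7 of the 8 rose, by 1.46 to 3.81, where 4.85% of genes were called higher. In CM-JAKi against MG-CM 6 of the 8 fell, with log2 fold changes of -6.77 to -2.33, where 0.72% of genes were called lower. Oas1g, Oas2 and Oas3, with 10, 5 and 6 counts in all of CM-JAKi, passed the filter on low counts only through CM and MG-CM. Those are the groups where these 3 genes were higher, and their falls are among the 8 and the 6. The median log2 fold change of the 8 was -5.57, 2.53 and -3.51 in these comparisons, and that of all genes tested was 0.0080, 0.0058 and 0.0054. CM-JAKi and CM libraries did not overlap in any of the 8 (18.3% of genes lay lower without overlap), nor did CM and MG-CM libraries (16% of genes lay higher without overlap). CM-JAKi and MG-CM libraries did not overlap in 6 of the 8 (8.24% lay lower without overlap). The comparisons share libraries and are not independent of each other.

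**Figure D1:**
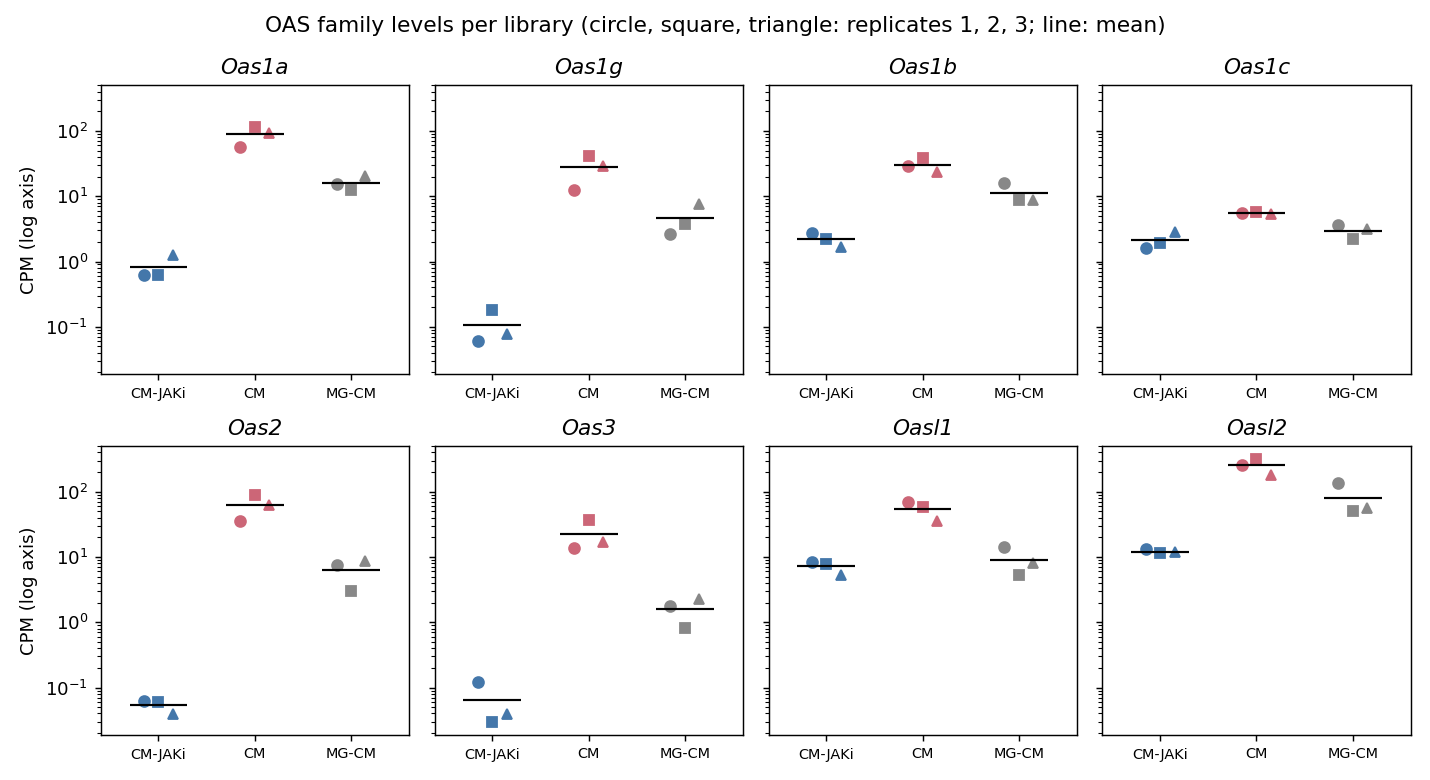
Level of each OAS gene in every library, in CPM on a log axis, with replicates 1, 2 and 3 as circle, square and triangle and the group mean as a line. CM lies above MG-CM in all 8 genes, and CM-JAKi lies below MG-CM in all except Oas1c and Oasl1, whose ranges overlap.

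Oas1a and Oas1g encode Oas1 proteins with synthetase activity. Oas1a was at 0.616, 0.628 and 1.24 CPM in CM-JAKi replicates 1, 2 and 3, at 56.2, 115 and 94.0 CPM in CM and at 15.4, 12.3 and 20.1 CPM in MG-CM. All CM libraries lay above, and all CM-JAKi libraries below, every MG-CM library. It fell 109-fold with the inhibitor (-6.77 ± 0.40, adjusted p = 0.000104) and rose 5.55-fold in CM against MG-CM (2.47 ± 0.31, adjusted p = 0.00749). Against MG-CM it fell 19.6-fold in CM-JAKi (-4.29 ± 0.38, adjusted p = 0.00233).

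Oas1g, the copy nearest to Oas1a in sequence, had 2, 6 and 2 counts in CM-JAKi, 363, 1314 and 902 in CM and 76, 112 and 198 in MG-CM. It was almost absent from the inhibited cultures and separated the groups without overlap. Its CM level of 27.6 ± 14.1 CPM was higher than the 4.63 ± 2.55 CPM in MG-CM (SD, n = 3 each, 2.58 ± 0.50, adjusted p = 0.0188). Summed over libraries, it was 259 times higher in CM than in CM-JAKi (95% interval 140 to 540, counting error only), and the fitted fall was called (adjusted p = 0.000454). CM-JAKi was also below MG-CM (adjusted p = 0.0137). The rise in CM was no longer called when MG-CM replicate 2 was left out (adjusted p = 0.0874), nor the fall against MG-CM without CM-JAKi replicate 2 (0.0700) or replicate 3 (0.0699). These fits did not pair the libraries. With the replicate number as a block the rise stayed called without MG-CM replicate 2 (adjusted p = 0.00546). Over all alternatives run, adjusted p was 1.05e-05 to 0.238 for the rise and 4.88e-13 to 0.259 for the fall against MG-CM.

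Counts of these near-identical copies are estimates. Of the words of 75 bases in GENCODE M21 transcripts, 47.6% of those of Oas1a also occurred in Oas1g and 36.9% of those of Oas1g in Oas1a. Oas1c shared 1.5% of its words, with Oas1d, Oas1e and Oas1f, and the other 5 members shared none with another gene. Summing Oas1a, Oas1b, Oas1c and Oas1g into 1 row removes the division of reads between them. The sum fell by 4.85 ± 0.27 with the inhibitor (adjusted p = 0.000102), rose by 2.14 ± 0.24 in CM against MG-CM (0.00606) and fell by 2.72 ± 0.25 in CM-JAKi against MG-CM (0.00266).

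Oas2 and Oas3, the larger synthetases, spanned the widest range of the family. Oas2 had 2, 2 and 1 counts in CM-JAKi, 1016, 2921 and 1895 in CM and 217, 90 and 229 in MG-CM. At 3 counts or fewer in every inhibited library it was at the detection limit there, which is 0.0898 to 0.116 CPM. Summed over libraries and scaled to library size, Oas2 was 1170 times higher in CM than in CM-JAKi (95% interval 501 to 3603, counting error only). It was 116 times higher in MG-CM than in CM-JAKi (49.2 to 357, counting error only). Both falls were called (adjusted p = 0.000150 and 0.00449), and the fitted fold changes depend on the prior count used for so few reads. In CM against MG-CM Oas2 rose 9.83-fold, with 62.7 ± 27.6 CPM in CM and 6.39 ± 2.96 CPM in MG-CM (3.30 ± 0.43, adjusted p = 0.00791).

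Oas3 had 4, 1 and 1 counts in CM-JAKi, 393, 1175 and 524 in CM and 51, 24 and 59 in MG-CM. The groups again did not overlap, and CM replicate 2 stood highest. Its rise in CM was the largest of the family, 14.0-fold, with 22.4 ± 12.2 CPM in CM and 1.60 ± 0.72 CPM in MG-CM (3.81 ± 0.49, adjusted p = 0.00791). Summed over libraries, Oas3 was 350 times higher in CM than in CM-JAKi (95% interval 160 to 954) and 24.1 times higher in MG-CM than in CM-JAKi (10.8 to 66.8). These intervals hold counting error only, not the spread between replicates. The fitted falls were called in CM-JAKi against CM (adjusted p = 0.000305) and against MG-CM (adjusted p = 0.0274). The second of these calls was lost without CM-JAKi replicate 1 (adjusted p = 0.0535), 2 (0.137) or 3 (0.129) and without MG-CM replicate 1 (0.0877) or 3 (0.0912). Its adjusted p was 2.55e-07 to 0.391 over all alternatives run.

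Oas1b and Oas1c lie in the same gene cluster as Oas1a. Oas1b is the mouse flavivirus resistance gene, and RefSeq lists it as a transcribed pseudogene in the reference assembly, which is C57BL/6J like these cells. It was at 2.71, 2.18 and 1.66 CPM in CM-JAKi, 29.4, 38.8 and 23.2 CPM in CM and 15.7, 8.76 and 8.79 CPM in MG-CM. All CM libraries lay above, and all CM-JAKi libraries below, the MG-CM range. It fell 13.8-fold with the inhibitor (-3.79 ± 0.32, adjusted p = 0.000305), rose 2.74-fold in CM against MG-CM (1.46 ± 0.29, adjusted p = 0.0199) and fell 5.04-fold in CM-JAKi against MG-CM (-2.33 ± 0.31, adjusted p = 0.0135). In fits without the block, the rise was lost without MG-CM replicate 2 (adjusted p = 0.0875) or 3 (0.0592), and the last fall without CM-JAKi replicate 2 (0.0801) or 3 (0.0567). With the replicate block the rise stayed called without MG-CM replicate 2 (adjusted p = 0.0228). Over all alternatives run, adjusted p was 4.62e-05 to 0.253 for the rise and 5.39e-11 to 0.181 for the last fall.

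Oas1c changed least in CM. It was at 1.63, 1.94 and 2.86 CPM in CM-JAKi, 5.63, 5.67 and 5.41 CPM in CM and 3.57, 2.20 and 3.11 CPM in MG-CM. The CM libraries lay together above the others, and CM-JAKi and MG-CM overlapped. It fell 2.6-fold with the inhibitor (-1.38 ± 0.26, adjusted p = 0.00980), a call lost without all libraries of replicate 2 (adjusted p = 0.144) or of replicate 3 (0.0589), with 1.80e-05 to 0.144 over all alternatives run. Its difference between CM and MG-CM was not called (0.91 ± 0.26, adjusted p = 0.0576) but was positive in 3 of 3 same-numbered pairs. With the replicate number as a block it was called (adjusted p = 0.0295), so that 8 of 8 members were higher, where the block called 11.6% of genes higher. DESeq2 called 8 of 8 as well, where it called 8.87% of genes higher. The adjusted p of Oas1c in CM against MG-CM was 0.00975 to 0.405 over all alternatives run. In CM-JAKi against MG-CM it gave -0.47 ± 0.26 (adjusted p = 0.610).

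**Figure D2:**
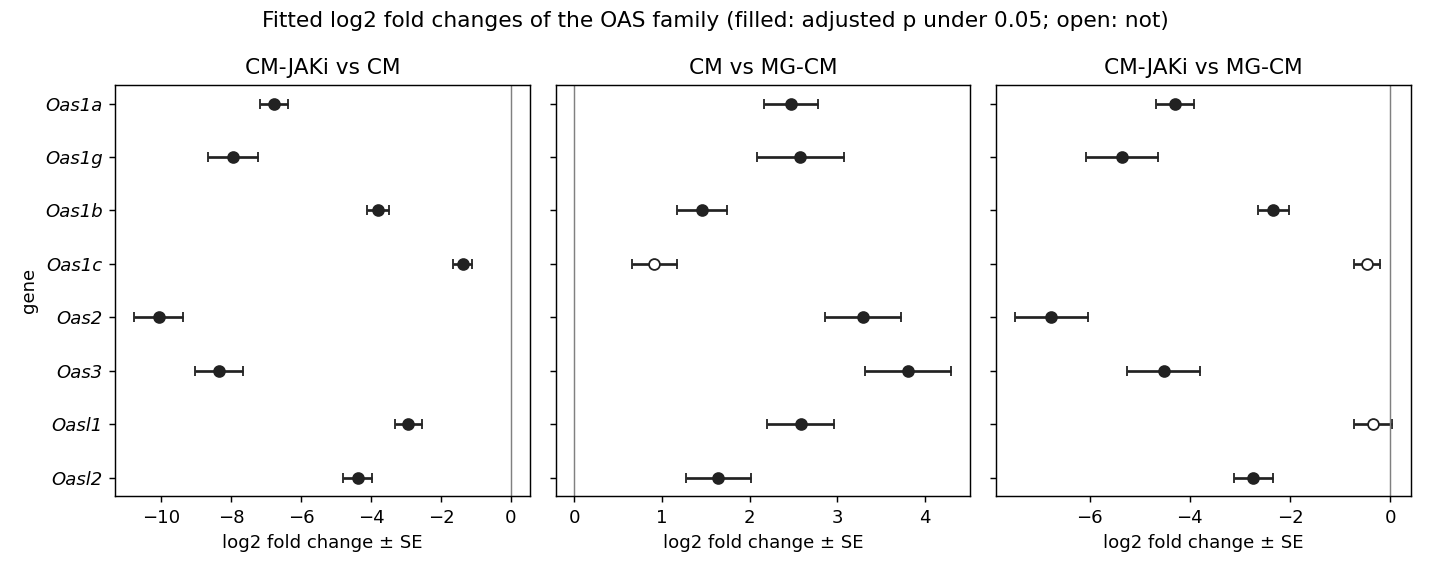
Fitted log2 fold change of each OAS gene with its SE in the 3 comparisons, each on its own axis, with filled points at adjusted p under 0.05 and open points otherwise. Oas1c is open in CM against MG-CM, and Oas1c and Oasl1 are open and near 0 in CM-JAKi against MG-CM.

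Oasl1 and Oasl2 lie in a cluster of their own on chromosome 5. Mouse Oasl1 lacks synthetase activity and is known to restrain translation of Irf7, while mouse Oasl2 is an active synthetase. Oasl1 was at 8.53, 7.72 and 5.34 CPM in CM-JAKi, 70.3, 58.5 and 35.9 CPM in CM and 14.0, 5.31 and 8.11 CPM in MG-CM. CM stood apart from both other groups, which overlapped. It fell 7.61-fold with the inhibitor (-2.93 ± 0.39, adjusted p = 0.00245) and rose 5.99-fold in CM against MG-CM (2.58 ± 0.38, adjusted p = 0.00990). In CM-JAKi against MG-CM it gave -0.34 ± 0.37 (adjusted p = 0.853), lower in 2 of 3 pairs and with a slightly positive change, 0.11, without MG-CM replicate 1 (adjusted p = 0.955). Its adjusted p there was 0.0376 to 1.00 over all alternatives run, the lowest with the replicate block without MG-CM replicate 2, where it was called lower.

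Oasl2 was at 13.1, 11.4 and 11.9 CPM in CM-JAKi, 256, 319 and 183 CPM in CM and 136, 50.4 and 56.3 CPM in MG-CM. The inhibited libraries were close together, whereas MG-CM replicate 1 held more than the other control libraries. Oasl2 fell 20.8-fold with the inhibitor (-4.38 ± 0.41, adjusted p = 0.000503), rose 3.13-fold in CM against MG-CM (1.65 ± 0.37, adjusted p = 0.0273) and fell 6.65-fold in CM-JAKi against MG-CM (-2.73 ± 0.39, adjusted p = 0.0168). In fits without the block, the rise was lost without CM replicate 1 (adjusted p = 0.0673), CM replicate 2 (0.0655), MG-CM replicate 2 (0.101) or MG-CM replicate 3 (0.0778). With the replicate block it stayed called without MG-CM replicate 2 (adjusted p = 0.0452) but not without all of replicate 2 (0.0712) or 3 (0.0777). The last fall was lost without CM-JAKi replicate 2 (0.0970) or 3 (0.0860). Over all alternatives run, adjusted p was 8.32e-05 to 0.278 for the rise and 4.09e-12 to 0.231 for the last fall. Divided by the longest GENCODE transcript, Oasl2 was the most abundant member in CM, at 81.0 ± 21.8 CPM per kb, above Oas1a at 46.9 ± 15.8 and Oasl1 at 25.2 ± 8.02. The ranges of Oasl2 and Oas1a overlapped slightly, at 58.6 to 102 and 29.8 to 61.1 CPM per kb.

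Set against control medium, the inhibited cultures held less of 6 members, with fitted falls of 5.04-fold for Oas1b to 109-fold for Oas2. The Oas2 value rests on counts at the detection limit. The ranges of Oas1c and Oasl1 overlapped between CM-JAKi and MG-CM. Oasl1 and Oas1c were then compared with the rest of the family within each library, a choice made after their values were seen. The log2 level of Oasl1 stood 3.06 above the median of the other 7 members in CM-JAKi and 0.43 above it in MG-CM, with ranges of 2.05 to 3.65 and -0.10 to 0.91. That of Oas1c stood 1.34 above the median of the others in CM-JAKi and 1.55 below it in MG-CM. The ranges did not overlap in either gene, which is a description with no test, since both genes were picked for not being called lower.

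**Figure D3:**
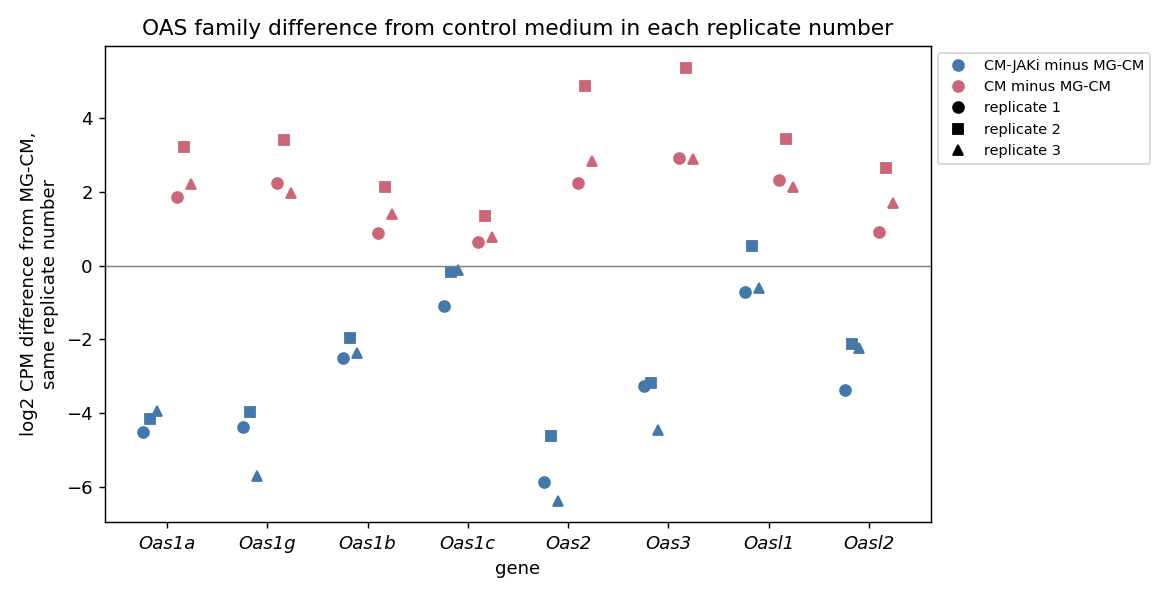
Difference of log2 CPM from the MG-CM library of the same replicate number, for CM-JAKi and for CM, with replicates 1, 2 and 3 as circle, square and triangle. The CM difference is largest in replicate 2 in all 8 genes, and the CM-JAKi differences of Oas1c and Oasl1 are the nearest to 0.

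The size of the CM response varied with the replicate number. In 8 of 8 members the same-numbered pair of replicate 2 (PSC5-I) showed the largest difference between CM and MG-CM, at 1.34 for Oas1c to 5.37 for Oas3, while the pairs of replicates 1 and 3 gave 0.65 to 2.92 and 0.79 to 2.91. The members share these libraries and are not separate observations, and the share over all genes was not counted. The pattern was not particular to the family. Stat2 gave 0.63, 1.86 and 1.11 in pairs 1, 2 and 3, and Isg15 1.33, 2.68 and 1.61, whereas Abce1 gave 0.66, 0.09 and 0.13. CM replicate 2 was the highest CM library in 7 of 8 members and MG-CM replicate 2 the lowest MG-CM library in 7 of 8. Without MG-CM replicate 2, 4 of 8 members were called higher in CM, where 0.326% of genes were, and without MG-CM replicate 3, 5 of 8, where 2.05% were. With all libraries of replicate 2 or of replicate 3 left out edgeR called 0 of 8, where 6 and 23 of all genes were called higher. At an unadjusted p under 0.05 these fits gave 7 and 8 members higher. The share of all genes at that threshold was not counted in these smaller fits, so these 2 counts are not read as a result. In the fit of all 9 libraries 1895 of 13613 genes were higher at it. With the replicate block the omission of all of replicate 2 or of replicate 3 gave 6 and 6 calls, where 1.78% and 5.12% of genes were called. Without CM-JAKi replicate 2 or replicate 3, 2 of 8 were called lower than MG-CM, where 0.153% and 0.247% of genes were. Without all of replicate 3 edgeR called 0 of 8, where no gene in the table was called. There 6 members had an unadjusted p under 0.05, and the share of all genes was again not counted in that smaller fit. The fit of all 9 libraries, which is not the same fit, had 723 of 13613 genes lower at that threshold. DESeq2 was not run on these smaller sets.

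Between the lines, Oas1g was lower in PSC4, at 5.10 CPM on average over its 3 libraries, than in PSC5, at 13.6 over 6 (-1.31 ± 0.28, adjusted p = 0.0160 in a fit with group and line, where 10.5% of genes were called lower in PSC4). As 1 of 8 members, this call is near that share and is not read as a result about the family. All 3 PSC4 libraries are of replicate number 1 and deviate together (correlations of 0.442 to 0.680), and the 6 PSC5 libraries are of 2 numbers. The p counts the 9 libraries as independent and is too small as a test of the line. Of the other 7 members edgeR called 0 by line, with 1, Oasl1, at an unadjusted p under 0.05. Oasl1 was called higher in PSC4 by DESeq2 (edgeR log2 difference 0.68 ± 0.22, DESeq2 adjusted p = 0.0128). The share of all genes called by DESeq2 was not counted for the line or for the difference between the lines below. The difference between the lines in the CM response rests on 1 PSC4 library per condition, assumed to vary like those of PSC5, and shows no spread of PSC4 itself. In that fit edgeR called 0 of 8, where 0.206% of genes had a lower response in PSC4, with 1 member at an unadjusted p under 0.05 and 1 called by DESeq2, in both cases Oasl2.

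Other genes of the pathway were taken from lists made by role. Of the genes that act beside the synthetases in 2-5A signalling, 3 were tested, namely Abce1, which also recycles ribosomes, and Pde12 and Akap7, which degrade or can degrade the messenger. Their medians were -0.01 with the inhibitor, 0.09 in CM against MG-CM and 0.07 in CM-JAKi against MG-CM, and edgeR and DESeq2 each called 0 in all 3 comparisons. With the inhibitor edgeR called 10.1% of all genes higher and 8.93% lower, and 3 genes are too few to set 0 calls apart from that. Of these 3 genes, 1, 0 and 0 had an unadjusted p under 0.05 in the same order. The 1 was Abce1, which averaged 301 ± 31.1 CPM in CM-JAKi and 378 ± 56.7 CPM in CM (SD, n = 3 each, -0.33 ± 0.15, adjusted p = 0.144 with edgeR).

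Of 6 genes of the interferon receptors, their kinases and ISGF3, 3 fell with the inhibitor and 2 were called higher in CM against MG-CM (medians -0.28 and 0.35). Over all genes 8.93% were called lower and 4.85% higher in these comparisons, which are also the shares for the lists below. With the replicate block 3 were lower and 1 higher with the inhibitor, the kinase gene Tyk2 (adjusted p = 0.0316 with the block and 0.0911 without it), and 4 were higher in CM. The block called 15.6% of all genes lower and 18.6% higher with the inhibitor, and 11.6% higher in CM. The single higher gene, Tyk2, is thus near the share of all genes. The 3 that fell were Irf9 and Stat2, subunits of ISGF3, and the kinase gene Jak1. Irf9 changed by -2.81 ± 0.19 (adjusted p = 0.000150), Stat2 by -2.75 ± 0.26 (0.000496) and Jak1 by -0.35 ± 0.09 (0.0287). The Jak1 call was lost without CM replicate 1 (adjusted p = 0.0570), 2 (0.0640) or 3 (0.0599) and without CM-JAKi replicate 2 (0.106) or 3 (0.0861), and its adjusted p was 0.000178 to 0.281 over all alternatives run. Of 8 genes of double-stranded RNA sensing 7 fell with the inhibitor and 7 rose in CM (medians -2.63 and 1.19). Eif2ak2, which encodes the kinase PKR, changed by -2.52 ± 0.18 with the inhibitor and the RNA editor Adar by -2.87 ± 0.21. Of 10 other interferon-stimulated genes 9 fell and 9 rose (medians -4.23 and 2.02), Ifit2 being the one that passed neither test. With the inhibitor Usp18, which takes ISG15 off proteins, changed by -4.54 ± 0.29 and Ifi44 by -8.76 ± 0.61 (adjusted p = 0.000150 each). The medians of the OAS family, -5.57 and 2.53, lay further from 0 than those of these lists, which also hold genes that were not called, such as Mavs. Outside the family Ifi44 (-8.76), Zbp1 (-6.60), Mx1 (-6.54) and Mx2 (-5.77) fell further with the inhibitor than the OAS median. In CM-JAKi against MG-CM, 2 of 6, 5 of 8 and 6 of 10 genes of the lists were called lower in the same order, where 0.72% of all genes were.

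**Figure D4:**
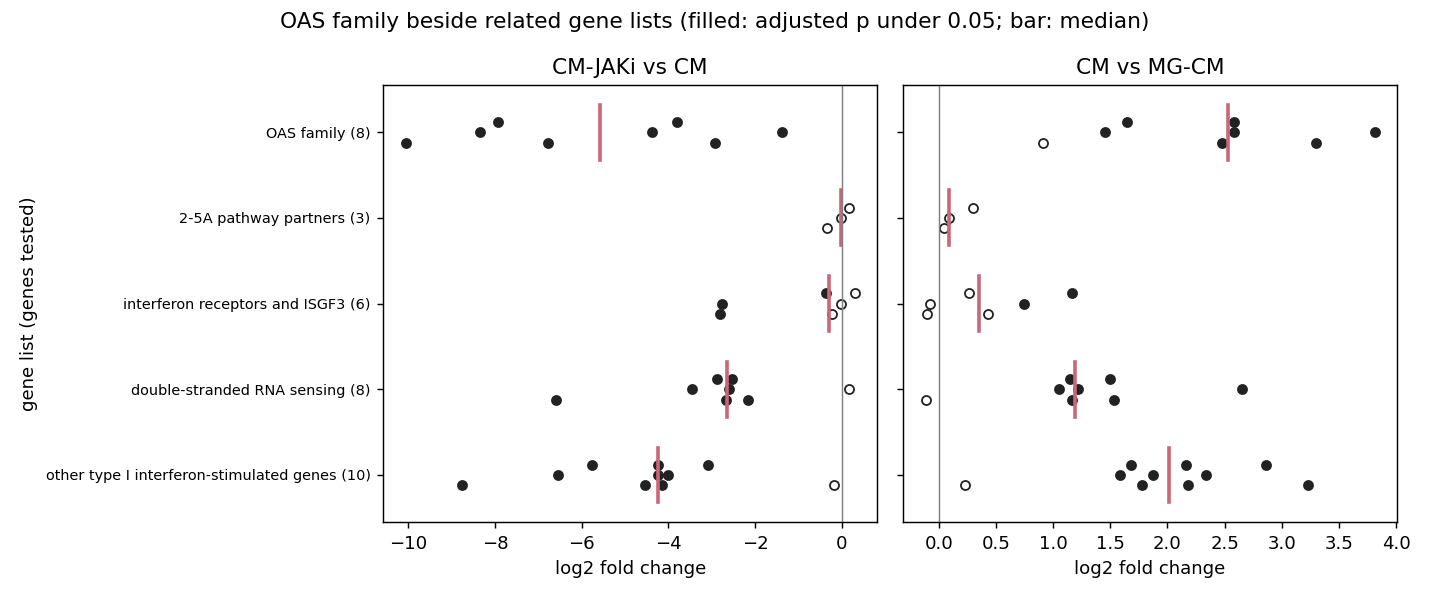
Log2 fold changes of the OAS family and of 4 related gene lists in CM-JAKi against CM and CM against MG-CM, with filled points at adjusted p under 0.05, open points otherwise and a bar at the median. All 8 OAS genes, 7 of 8 RNA sensors and all 10 other interferon-stimulated genes lie below 0 with the inhibitor and above 0 in CM, and all 2-5A partners lie between -0.33 and 0.30.

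The nearest genes around both OAS clusters were looked at as neighbours of the same region, using the RefSeq gene order. Of 12 such genes 7 had enough counts, and edgeR and DESeq2 each called 0 of them in all 3 comparisons. Over all genes edgeR called 10.1% higher and 8.93% lower in CM-JAKi against CM. It called 4.85% and 5.39% in CM against MG-CM, and 0.286% and 0.72% in CM-JAKi against MG-CM. At an unadjusted p under 0.05 there were 2, 0 and 0 neighbours in this order. In the first comparison 2481 of 13613 genes were higher at that threshold and 2203 lower. These 7 neighbours are too few to set 0 calls apart from these shares. Their log2 changes ran from -0.35 to 0.24 over the 3 comparisons. Ptpn11, which flanks the Oas1 cluster, changed by -0.09 ± 0.09 with the inhibitor and 0.10 ± 0.09 in CM.

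The genes whose log2 level over the 9 libraries was most like the mean standardised level of the 8 members were Lgals3bp and Eif2ak2 (Pearson r = 0.999 each), then Trim30a, Rnf213 and BC006779 (r = 0.995 each). Single members correlated with that mean at 0.875 for Oasl1, 0.925 for Oas1c and 0.962 to 0.993 for the other 6. These correlations describe 9 libraries that share groups, lines and medium sources.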

How the data were processed

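The deposited values are expected counts per gene symbol, estimated by the authors, whole numbers not scaled between libraries. This was read from the values and from RSEM 1.2.29 being named, with STAR 2.5.1b and DESeq2 and the builds NCBIM37 and mm9, per the submitters' processing notes. Such estimates divide reads among near-identical genes. Libraries were stranded TruSeq total RNA, per the labels' protocols.

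filterByExpr with the groups kept 13613 genes (a minimum count of 10 and a minimum total of 15). All 9 libraries were scaled by TMM and fitted with a term per group by edgeR 4.0.16 (robust quasi-likelihood, R 4.3.3), with Benjamini-Hochberg adjustment over all genes and calls at 0.05. Log2 CPM used a prior count of 2, and the fitted changes used edgeR's default prior count. DESeq2 1.42.0 was an alternative, with RLE factors, no filter, fewer libraries, a line term and a replicate block. Libraries of the same number share a line, so the numbers pair the samples. After group means were removed they correlated at 0.291 to 0.680 over 9 pairs, other numbers at 0.279 or less. Replicates differed beyond sampling noise (chi-square per degree of freedom 16.0 to 115). Members, lists and named genes (all members and, per list, up to 3 with the smallest p for the inhibitor) were chosen with earlier results of these data known. Some listed genes are not reported here. Promoter and gene order came from RefSeq GRCm38.p6, another build than that of the notes.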

Additional observations from a re-analysis of the deposited data

How the results depend on the processing

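All 8 members stayed called lower in CM-JAKi against CM under each alternative except the omission of replicate 2, with or without the block, and of replicate 3 without it, where 7 were called and Oas1c was not. The calls against MG-CM depended on single libraries. Members called higher in CM numbered 4 to 7 without single libraries (0.326% to 3.80% of all genes) and 0 to 8 without whole replicate numbers (0.0440% to 6.15%; 0 without replicate 2 and 0 without replicate 3, where 6 and 23 of all genes were called higher). With the replicate block these omissions gave 6 and 6 (1.78% and 5.12% of all genes). The block without MG-CM replicate 2 gave 7 (4.16%). These block fits were added after the data were seen. Members called lower in CM-JAKi than in MG-CM numbered 2 to 6 without single libraries (0.153% to 0.748% of all genes) and 0 to 5 without whole numbers (0% to 1.83%; 2 without replicate 2, 0 without replicate 3). With the block they numbered 0 without replicate 3 (0.110%) and 4 without replicate 1 (3.57%), where the median change was -3.17. Also with the block, they numbered 6 without replicate 2 (0.762%) and 7 without MG-CM replicate 2 (1.27%). The replicate block changed no other member's call than that of Oas1c in CM against MG-CM, where it called 8. DESeq2 called 1 member higher in PSC4, Oasl1 (adjusted p = 0.0128), and 1 with a lower CM response in PSC4, Oasl2, and its share over all genes was not counted there. Signs turned for changes near 0: Oasl1 in CM-JAKi against MG-CM (0.11 without MG-CM replicate 1, -0.67 to 0.11 over omissions), Oas3 between lines (0.073 with DESeq2), the line difference of Oas1g in CM-JAKi against MG-CM (-0.010 with DESeq2), Pde12 with the inhibitor (0.0482 without CM-JAKi replicate 1, 0.0214 without CM replicate 2, 0.0104 without replicate 1, 0.0242 without replicate 2, -0.0869 to 0.0482 over omissions, 0.0089 and 0.0187 with the block without replicates 1 and 2), Abce1 in CM-JAKi against MG-CM (0.018 without CM-JAKi replicate 1, 0.079 without MG-CM replicate 3, -0.126 to 0.079 over omissions, 0.023 with the block without MG-CM replicate 2) and Akap7. Akap7 gave -0.0034, -0.0921 and -0.135 in CM against MG-CM without MG-CM replicate 2, MG-CM replicate 3 and replicate 3 (up to 0.25 over omissions) and -0.129 with the block without replicate 3. In CM-JAKi against MG-CM it gave -0.0379 without replicate 3 (up to 0.51 over omissions) and -0.0285 with the block as well. The cause was not tested. With 1 to 6 counts, Oas1g, Oas2 and Oas3 in CM-JAKi are limited by depth.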

Other observations

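Some OAS paralogues and interferon genes had too few counts to be tested and are given as counts. In CM-JAKi Oas1h had 0, 1 and 1 counts (replicates 1, 2 and 3), against 2, 17 and 17 counts for CM and 0, 1 and 3 for MG-CM. Oas1d had 0 in all 3 CM-JAKi libraries, 1, 11 and 7 in CM and 3, 3 and 2 in MG-CM, and Oas1e had at most 1 count in any library. Both Oas1h and Oas1d were highest in CM replicates 2 and 3, the PSC5 libraries.

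Among genes for interferons, Ifnb1, which encodes interferon beta, had 1, 0 and 0 counts in CM-JAKi, 8, 15 and 8 in CM and 1, 0 and 2 in MG-CM. Ifna4, an interferon alpha gene, had 0 in every CM-JAKi and MG-CM library and 8, 9 and 3 counts in CM. Ifne had 0 in CM-JAKi, 0, 2 and 2 counts in CM and 0, 1 and 0 in MG-CM. Each of these genes was at or under 3 counts in every library outside CM, so no fold change is given, and a count of 0 allows up to 3 counts.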
